A study of Mus musculus with 20 samples.

Results

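Tumour bladders here are those of CKO mice inoculated with an adenovirus coding for Cre recombinase; they were set against the normal bladders of CKO mice. The members were chosen by the sample titles: 7 tumour bladders (replicates 1 to 7) and 5 normal bladders (replicates 1, 2, 4, 5 and 6), which are 12 of the 20 arrays of the series. The other arrays hold metastases and bladders of mice given palbociclib, a Cdk4/6 inhibitor, with the platinum drug CDDP, and enter here through the shared estimate of the spread and the scaling. All mice were of the FVB/N strain and carried conditional (floxed) alleles, that of Rb1 among them, which Cre can delete, together with a constitutive loss of p107 (gene Rbl1), so the normal bladders lack p107 too. The labels name no inoculation for the normal bladders, no promoter in front of Cre and no cell type that the virus enters, and the labels used here give no sex, age or time after inoculation. Expression was measured on Affymetrix arrays from RNA prepared with an FFPE kit (for fixed tissue in paraffin). Each value below is a level on the log scale of the deposited table, taken as log2, and a difference is the tumour mean minus the normal mean. The 5 values of the normal bladders stand in the order 1, 2, 4, 5, 6. The labels do not say whether the arrays hold separate animals, so p-values measure the spread between samples. That spread is taken within all groups fitted, metastases and treated bladders included.

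The Rb protein and its relatives p107 and p130 hold E2F transcription factors in check, and Cdk4 and Cdk6 release that hold when a cell enters the cell cycle. E2F factors then drive the genes of DNA replication, and the genes of mitosis follow under a complex that reads CHR elements in their promoters. The bladder wall itself is a urothelium, with basal cells below and luminal umbrella cells that make uroplakins above, on a connective tissue layer and a thick coat of smooth muscle.

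The 12 arrays were of 2 kinds, singled out with their values known. Normal bladders 4, 5 and 6 and tumour bladders 3, 4 and 5 (the flat arrays) had a spread (SD) of 0.336 to 0.367 over dim rows, and the highest correlation of any of them with a further array of the series, taken over deviations from each gene's mean, was r = 0.21 (across genes, not independent replicates). The 6 other arrays, normal bladders 1 and 2 and tumour bladders 1, 2, 6 and 7, had an SD of 0.231 to 0.329. Each had a partner in the series at r = 0.485 or above. For tumour bladder 6 that partner was metastasis 1. Its r across genes was -0.641, -0.427 and 0.17 with tumour bladders 1, 2 and 7. Array medians lay between 5.12 and 5.48. Differences are therefore given over the 12 arrays, over the 6 other arrays and over the 6 flat arrays. The choice of the flat set by low correlations may in part set the small differences within it, which was not tested. On the 6 other arrays tumour bladder 7 was nearer to normal bladders 1 and 2 (r = 0.505 and 0.549 across genes) than to any tumour bladder.

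By limma with Benjamini-Hochberg adjustment, 0 of 30142 genes passed the threshold of 0.05 over the 12 arrays (0%), with a smallest adjusted p of 0.998, so every gene named below has an adjusted p of at least 0.998 there. At an unadjusted p under 0.05, 721 genes were higher (2.39%) and 560 lower (1.86%). Chance alone gives about 1 in 20 genes at that threshold, which is more than these 1281. The mean was higher in tumour bladders for 53.1% of genes, with a median difference of 0.01. All tumour bladders lay above all normal bladders in 25 genes (0.0829%) and below them in 25 (0.0829%). Over the 6 other arrays 0 genes passed (smallest adjusted p = 0.190 by limma), 1.48% were higher and 1.86% lower at an unadjusted p under 0.05, and 61.4% had a higher mean. The 4 tumour bladders lay above both normal bladders there in 7.67% of genes and below both in 4.67%. Among genes at an unadjusted p under 0.05, 44.4% were higher there, against 29.0% with each array centred on its median. Over the 6 flat arrays 45.3% of genes had a higher mean, 4.08% lay above without overlap and 6.28% below (smallest adjusted p = 0.537 by limma). In such bulk tissue, fewer cells of a type and less RNA per cell cannot be told apart.

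Genes of the G2 and M phases had higher means in tumour bladders in 35 of 35 measured members over the 12 arrays (53.1% of all genes), with a median difference of 0.28 (0.01 over all genes). The list mean was 5.12, 5.16, 5.68, 5.71 and 5.76 on the normal bladders and ran from 5.26 to 6.41 (median 5.73) on the tumour bladders. Tumour bladders 6 and 2 stood highest, normal bladders 1 and 2 lowest, and tumour bladder 7 just above those, while the flat arrays of both groups lay side by side. On normal bladders 1 and 2 the list mean lay below those arrays' medians (5.25 and 5.29). Over the 6 other arrays all 35 members had a higher mean (median difference 0.67) and 23 lay above both normal bladders without overlap (61.4% and 7.67% of all genes). Over the flat arrays 17 members had a higher mean (45.3% of all genes), with a median difference of 0.00.

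Genes of S phase, most of them E2F targets, were higher in mean in 31 of 32 members, with a median difference of 0.24. The median difference over the 6 other arrays was 0.57, with 32 members higher (61.4% of all genes) and 18 above both normal bladders without overlap (7.67%). Over the flat arrays it was 0.01. Fen1, the flap endonuclease that trims Okazaki fragments, was the member with no higher mean (difference 0.00).

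The promoters of 4 members are shown as examples of the sequence elements that the cell cycle lists are known for. They are given 5′ to 3′ from 250 bases before to 50 bases after the annotated start, from RefSeq on GRCm38.p6, with capitals marking, as read on either strand, the letters CCAAT, the CHR element TTTGAA, and the E2F sites TTTGGCGC, TTTCCCGC and TTTCGCGC. Cdc20 and Top2a are mitotic genes and Mcm3 and Mcm5 encode subunits of the replicative helicase; Cdc20 lies at chr4:118437294-118437593 (minus strand), Top2a at chr11:99024140-99024439 (minus), Mcm3 at chr1:20820263-20820562 (minus) and Mcm5 at chr8:75109259-75109558 (plus). In Mcm5 the E2F matches of both strands overlap. Mcm3 and Mcm5 were taken as the first S-phase members, in list order, whose promoters held an E2F site. Their E2F matches were therefore set by the choice.
Cdc20: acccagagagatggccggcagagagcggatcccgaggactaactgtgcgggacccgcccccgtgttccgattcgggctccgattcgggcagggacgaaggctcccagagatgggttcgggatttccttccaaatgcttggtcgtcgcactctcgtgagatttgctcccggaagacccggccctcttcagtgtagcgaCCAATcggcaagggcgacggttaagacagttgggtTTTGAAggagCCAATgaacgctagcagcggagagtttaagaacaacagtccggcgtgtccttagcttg
Top2a: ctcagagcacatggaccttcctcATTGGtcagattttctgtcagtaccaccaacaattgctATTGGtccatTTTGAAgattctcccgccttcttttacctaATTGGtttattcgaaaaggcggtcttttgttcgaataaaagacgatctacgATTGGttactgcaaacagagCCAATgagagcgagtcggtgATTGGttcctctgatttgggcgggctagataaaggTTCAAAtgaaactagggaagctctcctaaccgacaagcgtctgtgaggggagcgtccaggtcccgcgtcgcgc
Mcm3: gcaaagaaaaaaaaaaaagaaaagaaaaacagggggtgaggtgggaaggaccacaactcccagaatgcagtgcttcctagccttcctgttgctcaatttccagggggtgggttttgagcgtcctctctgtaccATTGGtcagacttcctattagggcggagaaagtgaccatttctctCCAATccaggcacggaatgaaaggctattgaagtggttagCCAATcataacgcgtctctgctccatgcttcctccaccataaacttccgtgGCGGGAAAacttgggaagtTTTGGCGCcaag
Mcm5: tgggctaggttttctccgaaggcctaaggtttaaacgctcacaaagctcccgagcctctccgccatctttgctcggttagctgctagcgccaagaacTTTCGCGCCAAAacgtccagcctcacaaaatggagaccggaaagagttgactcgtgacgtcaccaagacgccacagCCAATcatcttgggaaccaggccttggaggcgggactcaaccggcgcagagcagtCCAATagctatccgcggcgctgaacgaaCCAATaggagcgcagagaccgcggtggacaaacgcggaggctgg
The same letters were counted over both lists. Of the 31 promoters found for 29 of the 35 G2 and M genes, 83.9% held a CCAAT and 77.4% a CHR, against 37.4% and 17.9% of all 32851 promoters of that length. E2F letters stood in 3.23% of them and in 1.84% of all promoters. Of the 32 promoters of 27 S-phase genes, 37.5% held an E2F site, 15.6% a CHR and 62.5% a CCAAT. A match describes letters in this window and no binding was measured.

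Cdc20, which activates the anaphase-promoting complex, was at 4.91, 4.96, 5.42, 5.52 and 5.30 on normal bladders and from 5.05 to 6.55 (median 5.93) on tumour bladders. All tumour bladders lay above normal bladders 1 and 2, while tumour bladders 4 and 7 lay among or below normal bladders 4 to 6. Its difference was 0.60 (SE 0.24, unadjusted p = 0.0215 by limma), with 0.89 over the 6 other arrays and 0.40 over the flat ones. Top2a, the topoisomerase that untangles chromosomes before they part, was at 5.05, 5.13, 6.15, 6.42 and 6.06 and from 5.35 to 8.16 (median 6.33), a difference of 0.82 (SE 0.51). Tumour bladders 2 and 6 were above every normal bladder, and the remaining tumour bladders lay within the normal range. Mki67, which encodes the proliferation antigen Ki-67, was at 4.58, 4.71, 6.47, 6.22 and 6.41 on normal bladders and from 5.25 to 8.25 (median 6.65) on tumour bladders. Tumour bladders 1, 2, 4 and 6 were above every normal bladder and tumour bladder 7 was below the flat arrays. On the 6 other arrays its difference was 2.24, the largest of the list there, and on the flat ones 0.01. Pcna-ps2, a Pcna pseudogene copy that may share probes with its parent, and Depdc1a and Prr11, both of which serve mitosis, were also among the 10 largest non-overlapping higher genes over the 6 other arrays, at 1.49, 1.54 and 1.58.

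Among replication genes, Mcm2, another helicase subunit, was at 4.84, 4.96, 5.44, 5.46 and 5.35 on normal and from 5.06 to 6.14 (median 5.63) on tumour bladders. All flat tumour arrays lay above all flat normal arrays in this gene, by 0.15, and the difference over the 6 other arrays was 0.76. Mcm6 had the largest difference of the list (0.55, and 1.33 over the 6 other arrays). Rrm2, the small subunit of ribonucleotide reductase, differed by 0.31 (SE 0.21) and Ccne1, cyclin E1, by 0.26 (SE 0.22).

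**Figure D1:**
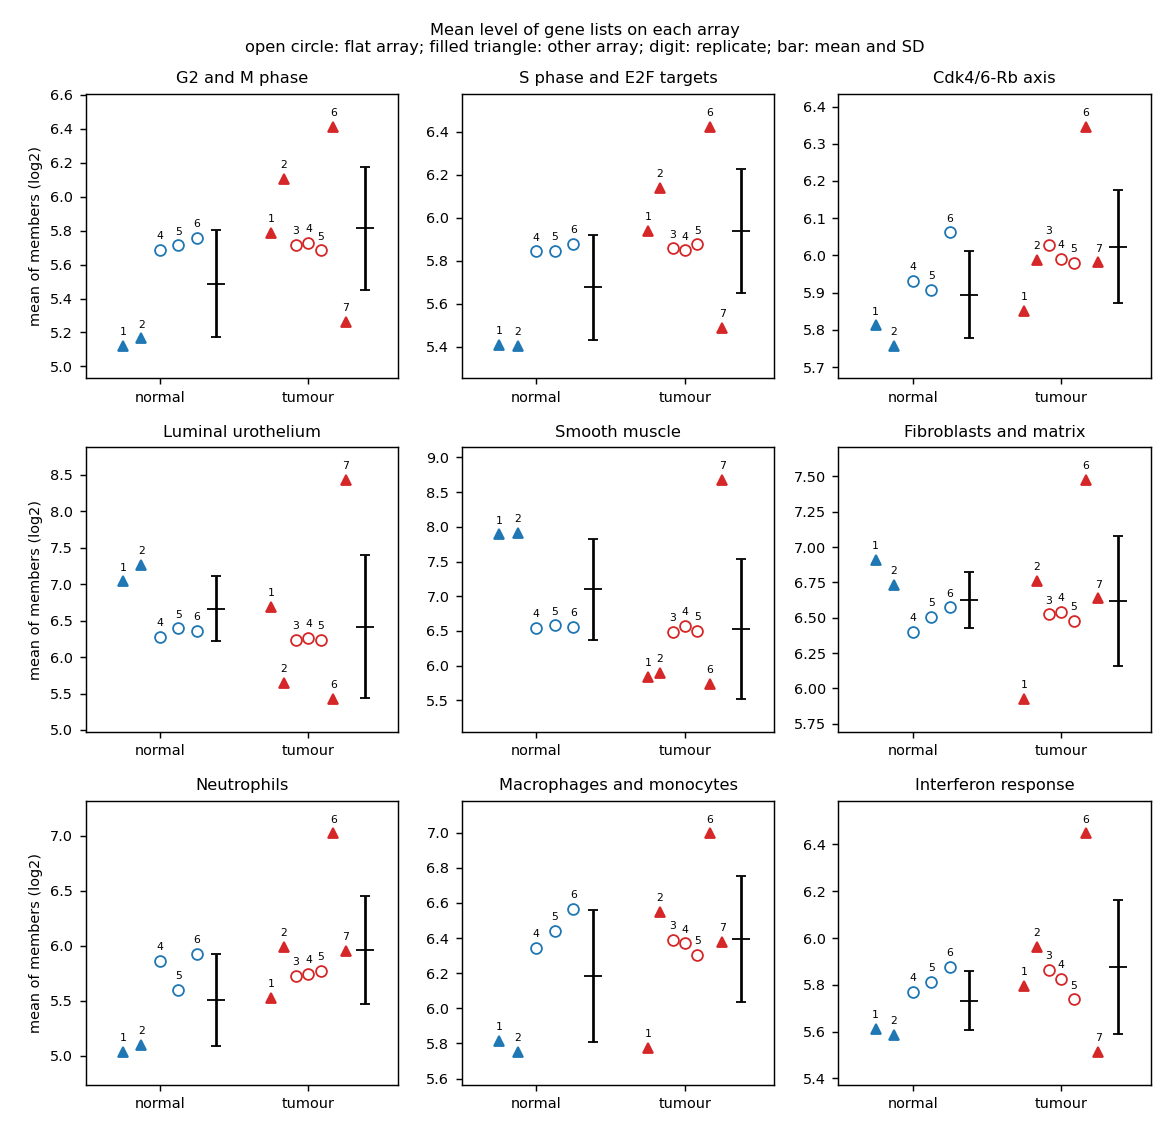
Mean log2 level of the measured members of 9 gene lists on each array, normal bladders in blue and tumour bladders in red, with open circles for flat arrays, triangles for the other arrays, replicate numbers beside the points and bars for the mean and SD. The flat arrays of both groups lie level with each other, while for smooth muscle the tumour bladders outside the flat set split into 3 near 5.74 to 5.90 and tumour bladder 7 at 8.67.

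In the Cdk4/6-Rb list, 16 of 21 members had a higher mean (median difference 0.13, or 0.34 over the 6 other arrays and 0.01 over the flat ones). Without tumour bladder 6 the median was 0.07 and without normal bladder 6 0.21. Cdkn2a, which encodes the Cdk4/6 inhibitor p16 and, in another frame, Arf, was at 5.62, 5.47, 6.03, 5.98 and 6.42 on normal bladders and from 5.80 to 7.01 (median 6.64) on tumour bladders. Tumour bladders 1 to 6 were above all normal bladders and tumour bladder 7 was below 3 of them. The difference was 0.70 (SE 0.22, unadjusted p = 0.00477 by limma), with 1.06 over the 6 other arrays and 0.45 over the flat arrays; the groups did not overlap within either kind.

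Cdk4 itself was at 6.51, 6.39, 6.60, 6.33 and 6.85 and from 6.10 to 8.16 (median 6.91), with overlap in both kinds of array, and its highest value fell on tumour bladder 6. Its difference was 0.44 (SE 0.31) and that of Cdk6 0.20 (SE 0.21). Rbl2, which encodes p130, had the lowest difference of the list (-0.22, SE 0.15).

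The 2 engineered loci that were analysed showed small differences. Rb1 was at 6.25, 6.18, 5.78, 6.32 and 6.12 on normal bladders and from 5.44 to 6.45 (median 5.93) on tumour bladders, a difference of -0.17 (SE 0.16), with tumour bladder 1 the lowest and tumour bladder 7 the highest of all 12. Rbl1 was at 6.29, 6.27, 6.5, 6.79 and 6.60 and from 6.15 to 7.13 (median 6.56), a difference of 0.13 (SE 0.30). Where their probes lie relative to the deleted parts is not known here, so the levels check no deletion.

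Polycomb repressive complex 2, which methylates histone H3 to silence genes, had 6 of 12 members higher in mean and a median difference of -0.01. Its catalytic subunit Ezh2, itself an E2F target, was at 6.48, 6.40, 6.92, 6.83 and 7.08 and from 6.74 to 7.97 (median 7.0). For Ezh2 all tumour bladders lay above both normal bladders on the 6 other arrays (difference 0.90), while the partners Suz12 (-0.11) and Eed (0.18) overlapped.

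Genes that p53 is known to activate were split evenly, with 10 of 20 higher in mean and a median difference of 0.01. Cdkn1a, the Cdk inhibitor p21, differed by 0.18 (SE 0.20), Mdm2, the ligase that degrades p53, by -0.09 (SE 0.09), and the apoptosis gene Bbc3 by 0.09 (SE 0.09). The ends of the list were Tnfrsf10b, a death receptor, at 0.18 and Ccng1, cyclin G1, at -0.43.

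Luminal urothelial genes had lower means in 21 of 26 members (median difference -0.17, or -0.29 over the 6 other arrays and -0.16 over the flat ones), with a wide spread among the tumour bladders. The median was -0.06 without tumour bladder 6 and -0.41 without tumour bladder 7, the ends of the range when 1 array is left out. A lower mean was found for 16 members over the 6 other arrays, with 0 free of overlap, and for 18 over the flat arrays, with 6 free of overlap (6.28% of all genes). Upk1a, an uroplakin of the umbrella cell surface, was at 11.01, 12.28, 8.07, 8.34 and 8.04 on normal bladders and from 5.48 to 14.18 (median 8.14) on tumour bladders. Tumour bladder 7 held the highest level of all 12 arrays and tumour bladders 6 and 2 the lowest, and the flat arrays of both groups lay between 8.04 and 8.60. The difference was -1.18 (SE 1.16), or -3.27 over the 6 other arrays and 0.20 over the flat ones.

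Upk3a was at 9.55, 10.30, 6.76, 6.90 and 6.78 on normal bladders and from 4.73 to 12.39 (median 7.41) on tumour bladders, with the same order of arrays at both ends. On tumour bladders 2 and 6 Upk3a (5.19 and 4.73) and Upk2 (5.22 and 4.79) lay below those arrays' medians (5.35 and 5.12), and both are defining markers of bladder epithelium. Upk1b differed by -1.19 (SE 1.0) and Upk2 by -0.33 (SE 0.58). Snx31, a sorting nexin of umbrella cells, differed by -1.78 over the 6 other arrays and Krt18, a simple keratin, by -1.38, while Krt19 had the highest difference of the list (0.46).

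Basal and squamous keratinocyte genes were divided, with 14 of 24 higher in mean (median difference 0.04, and -0.04 without tumour bladder 1). Krt5, a basal keratin, was at 8.27, 8.28, 6.83, 6.71 and 6.96 on normal and from 5.54 to 9.38 (median 6.88) on tumour bladders. Tumour bladders 1 and 7 were near or above the highest normal levels and tumour bladders 2 and 6 were below every normal bladder. Trp63, the basal lineage factor, differed by -0.17 (SE 0.22), and Krt14 by 0.18 (SE 0.19). Ivl, involucrin of the cornified envelope, differed most (-1.09, SE 1.23) and ran from 5.02 to 13.34 (median 7.93) on tumour bladders.

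**Figure D2:**
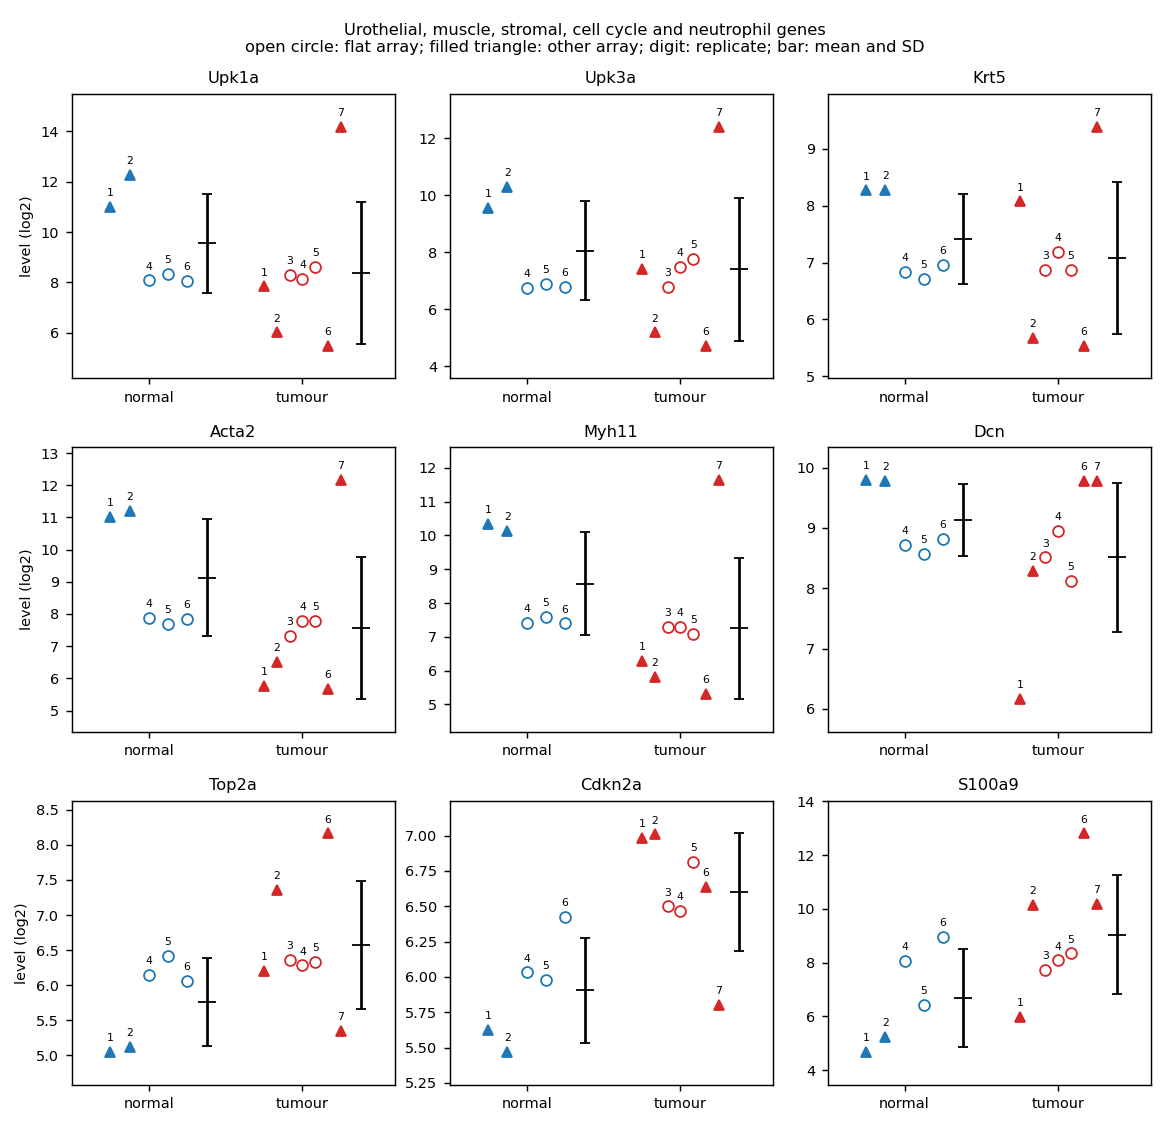
Log2 level of 9 single genes on each array, normal bladders in blue and tumour bladders in red, with open circles for flat arrays, triangles for the other arrays, replicate numbers beside the points and bars for the mean and SD. In Upk1a, Upk3a, Krt5, Acta2 and Myh11 tumour bladder 7 is the highest of the 12 arrays and tumour bladder 6 the lowest, and in Cdkn2a 6 of the 7 tumour bladders lie above all normal bladders.

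Smooth muscle genes had a lower mean in 23 of 23 members, with a median difference of -0.41 over the 12 arrays, -1.14 over the 6 other arrays and -0.05 over the flat ones. The list mean was 7.89, 7.91, 6.55, 6.58 and 6.56 on normal bladders and from 5.74 to 8.67 (median 6.49) on tumour bladders. Tumour bladders 1, 2 and 6 were the lowest arrays of all and tumour bladder 7 the highest. Of its members 1 lay below both normal bladders on the 6 other arrays (4.67% of all genes). Without tumour bladder 7 the median was -0.71 over the remaining arrays, and over those of that kind -1.82.

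Acta2, smooth muscle actin, was at 11.01, 11.21, 7.88, 7.70 and 7.86 on normal bladders and from 5.66 to 12.16 (median 7.33) on tumour bladders. Myh11, the smooth muscle myosin heavy chain, was at 10.35, 10.13, 7.42, 7.59 and 7.40 and from 5.31 to 11.63 (median 7.09), and its flat arrays did not overlap between the groups (difference -0.24). Both genes were lowest on tumour bladder 6 and highest on tumour bladder 7. The differences were -1.56 (SE 0.97) for Acta2, -1.33 (SE 0.90) for Myh11 and -0.38 (SE 0.44) for Des, the muscle intermediate filament desmin. Actg2, the enteric smooth muscle actin, differed by -2.48 over the 6 other arrays, Tagln by -2.17, Myl9, a myosin light chain, by -2.13 and Myocd, the factor that drives this programme, by -1.12. Hspb6, a small heat shock protein, was the member with no lower mean over those arrays (0.04).

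Fibroblast and matrix genes went both ways, with 16 of 23 higher in mean (median difference 0.08, turning to -0.03 without tumour bladder 6 and reaching 0.17 without tumour bladder 1). Col1a1, the main fibrillar collagen chain, was at 7.68, 7.40, 7.54, 7.59 and 7.74 on normal bladders and from 6.86 to 9.66 (median 7.48) on tumour bladders, with tumour bladders 2 and 6 above all others. Dcn, the proteoglycan decorin, was at 9.79, 9.77, 8.72, 8.57 and 8.82 and from 6.17 to 9.78 (median 8.51). Tumour bladder 1 was far below the rest in Dcn, and tumour bladders 6 and 7 stood level with normal bladders 1 and 2. The differences were 0.23 (SE 0.37) for Col1a1, 0.19 (SE 0.25) for Col3a1, -0.62 (SE 0.49) for Dcn and -0.65 (SE 0.55) for lumican (Lum). The microfibril and matrix genes Fbln2 (0.90) and Loxl1 (0.68) and the collagens of type VI (0.44 for Col6a1) were on the higher side over the 6 other arrays, and Fbln1 (-1.44), Clec3b (-0.87) and Lum (-1.72) on the lower.

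Genes of epithelial to mesenchymal transition were level, with 9 of 19 higher in mean and a median difference of -0.03. The list mean ran from 5.75 to 7.36 (median 6.30) on tumour bladders, lowest on 1 and highest on 6. Vim, the mesenchymal filament vimentin, differed by 0.10 (SE 0.28), and the repressors of E-cadherin Zeb1 and Snai2 by 0.10 (SE 0.30) and 0.19 (SE 0.31).

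Endothelial genes were lower in mean in 13 of 21 members (median difference -0.06). Tek, the receptor of angiopoietins, was at 6.95, 6.46, 5.90, 5.92 and 6.28 on normal and from 5.72 to 6.09 (median 5.88) on tumour bladders. Normal bladders 1 and 2 were the highest arrays and the flat arrays overlapped. Its difference was -0.40 (SE 0.16, unadjusted p = 0.0224 by limma), -0.85 over the 6 other arrays and -0.07 over the flat ones. Over the 6 other arrays 9 members lay below both normal bladders (4.67% of all genes), Tek, Pecam1 (-0.52) and Emcn (-1.05) among them, and Cdh5, the junction cadherin, differed by -0.07.

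Neutrophil genes had a higher mean in 22 of 23 members, with a median difference of 0.32 over the 12 arrays, 0.75 over the 6 other arrays and -0.06 over the flat ones. The list mean was 5.03, 5.1, 5.86, 5.60 and 5.93 on normal bladders and from 5.53 to 7.02 (median 5.77) on tumour bladders. Normal bladders 1 and 2 were the lowest arrays, below their array medians (5.25 and 5.29), and tumour bladder 6 the highest, with the flat arrays of both groups in between. Without overlap, 17 members lay above both normal bladders on the 6 other arrays (7.67% of all genes). Without tumour bladder 6 the median over all remaining arrays was 0.14.

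S100a9, which forms calprotectin with S100a8, was at 4.68, 5.23, 8.07, 6.42 and 8.97 on normal bladders and from 5.99 to 12.81 (median 8.34) on tumour bladders. Its partner S100a8 was at 4.26, 4.64, 7.45, 6.64 and 7.89 and from 4.76 to 13.56 (median 7.78). Both were highest on tumour bladder 6, followed by tumour bladders 7 and, for S100a9, 2, and both were low on tumour bladder 1 and on normal bladders 1 and 2. The differences were 2.37 (SE 1.03, unadjusted p = 0.034 by limma) and 1.97 (SE 1.15), or 4.83 and 4.40 over the 6 other arrays (the largest differences there among higher genes free of overlap). Stfa1, a stefin of mouse neutrophils with near-identical copies beside it, differed by 0.76 (SE 0.33). Elane (-0.14) and Mpo (0.01), granule proteins of immature neutrophils, were at the low end of the list.

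Macrophage and monocyte genes had a higher mean in 22 of 25 members, with medians of 0.21 over the 12 arrays, 0.56 over the 6 other arrays and -0.14 over the flat ones. The median was 0.10 without normal bladder 1, 0.11 without normal bladder 2, 0.13 without tumour bladder 6 and 0.33 without normal bladder 6. C1qb, a chain of complement C1q, was at 4.65, 4.31, 6.78, 7.55 and 6.51 on normal bladders and from 4.78 to 7.65 (median 6.59) on tumour bladders. Normal bladders 1 and 2 and tumour bladder 1 were low, and normal bladder 5 was among the highest. Lyz2, macrophage lysozyme, differed by 1.23 over the 6 other arrays and -0.50 over the flat ones, and Csf1r, the growth factor receptor of macrophages, by 0.37 and -0.16. Lilr4b, an inhibitory receptor of myeloid cells, was among the 10 largest non-overlapping higher genes over the 6 other arrays (1.79, and 0.12 over the flat ones).

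T and NK cell genes had a median difference of 0.03, with 16 of 22 higher in mean. Cd3e, of the T cell receptor complex, was at 4.88, 5.29, 5.16, 5.01 and 5.28 and from 5.01 to 5.88 (median 5.25), close to the array medians, with tumour bladder 5 the highest. Gzmb, granzyme B, had the largest difference of the list (0.36, SE 0.18). B and plasma cell genes had a median difference of 0.14 (0.07 without tumour bladder 1, and -0.11 over the flat arrays), with 12 of 16 higher. Jchain, which joins secreted IgA and IgM, was at 5.37, 4.94, 6.01, 5.65 and 6.41 and from 5.21 to 7.74 (median 6.04), highest on tumour bladder 1, and Ms4a1 (CD20) differed by 0.10 (SE 0.20). MHC class II genes had 5 of 11 members higher (median -0.03), with H2-Aa at a difference of -0.03 and H2-Eb1 at -0.04.

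Interferon response genes had a higher mean in 20 of 26 members (median difference 0.11, or 0.30 over the 6 other arrays and 0.01 over the flat ones). Without tumour bladder 6 the median was 0.04. Oas1a, an antiviral RNA sensor, was at 5.70, 5.80, 6.43, 6.52 and 6.30 on normal bladders and from 5.92 to 8.27 (median 6.84) on tumour bladders. Tumour bladders 1 to 6 were above every normal bladder and tumour bladder 7 lay among them. Its difference was 0.85 (SE 0.31, unadjusted p = 0.0125 by limma), 1.31 over the 6 other arrays and 0.51 over the flat ones, with no overlap in either kind. Isg15 (0.07), Ifit1 (-0.12) and Ifit3 (-0.17), induced by the same signal, had differences near 0 or below it.

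Chemokine and cytokine genes had a higher mean in 21 of 28 members (median difference 0.16, or 0.30 over the 6 other arrays and -0.01 over the flat ones). Without tumour bladder 6 the median was 0.05. Cxcl1, which draws neutrophils, was at 4.80, 4.82, 5.18, 4.98 and 5.15 and from 5.01 to 5.92 (median 5.29). On every normal bladder its level lay below that array's median (5.25 to 5.37). Its flat tumour arrays lay above the flat normal ones, as did the tumour arrays of the other kind, and its difference was 0.34 (SE 0.14, unadjusted p = 0.0273 by limma). Il1b ran from 4.90 to 7.60 (median 5.43) on tumour bladders and Il6 from 4.49 to 6.13 (median 4.67), each with tumour bladder 6 far above the others. Ccl8, a monocyte chemokine, was at 5.60, 6.38, 7.36, 7.18 and 6.63 on normal bladders and highest on tumour bladder 7 (9.55), with a difference of 2.01 over the 6 other arrays. Cxcl14, a chemokine that epithelia make at rest, had the lowest difference (-0.89, SE 0.47), and its flat arrays did not overlap (-0.48).

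Matrix proteases and their inhibitors had a higher mean in 20 of 25 members (median difference 0.11, or 0.22 over the 6 other arrays and 0.00 over the flat ones). Without tumour bladder 6 the median was 0.03. Mmp3, stromelysin, was at 5.01, 5.02, 6.16, 6.38 and 6.04 on normal bladders and from 4.91 to 10.88 (median 5.89) on tumour bladders, where tumour bladder 6 stood alone. Its difference was 0.67 (SE 0.74), and those of Mmp13 and Mmp9 were 0.28 and 0.09. Timp3, an inhibitor of these enzymes, had the lowest (-0.25, SE 0.14).

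Glycolysis and hypoxia genes had a higher mean in 23 of 26 members (median difference 0.12, 0.31 over the 6 other arrays and -0.04 over the flat ones). The median was 0.07 without tumour bladder 6 and 0.08 without normal bladder 1. Tpi1, triose phosphate isomerase, was at 6.87, 6.75, 6.91, 7.28 and 7.65 and from 7.13 to 8.48 (median 7.59). It differed by 0.61 (SE 0.25, unadjusted p = 0.0244 by limma) and by 0.23 over the flat arrays. Ldha, lactate dehydrogenase, ran from 6.70 to 8.27 (median 7.04) on tumour bladders, the glucose carrier Slc2a1 from 5.71 to 7.68 (median 6.14) and Vegfa from 7.06 to 8.43 (median 7.22), each highest on tumour bladder 6.

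Genes of oxidative phosphorylation had a lower mean in 17 of 26 members (median difference -0.08), and ribosomal protein genes in 10 of 13 (median -0.06). Without tumour bladder 1 these medians were 0.01 and 0.00. Both list means were lowest on tumour bladder 1 (6.07 and 6.73) and highest on tumour bladder 7 (7.29 and 8.36). Rpl7, of the large ribosomal subunit, was at 7.44, 7.43, 7.04, 7.36 and 7.37 and from 6.38 to 7.51 (median 6.96), a difference of -0.36 (SE 0.17). Receptor kinase and PI3K genes were level (median -0.02). Egfr differed by 0.33 (SE 0.29), Fgfr3 by -0.04 (SE 0.10) and Pik3ca by -0.12 (SE 0.13).

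Cells outside the bladder wall proper were looked for through their markers. Adipocyte genes had a lower mean in 12 of 18 members (median difference -0.18), and their list mean ran from 5.52 to 5.92 (median 5.86) on tumour bladders against 6.08, 6.12, 5.83, 5.90 and 5.94 on normal bladders. Scd1, a fatty acid desaturase, had the lowest difference (-0.68, SE 0.32), and the adipokine Adipoq was at -0.40 (SE 0.24). Skeletal muscle genes had a median difference of 0.09, which was 0.35 over the 6 other arrays, -0.14 over the flat arrays and 0.02 without tumour bladder 6. Over the flat arrays 15 of 18 were lower in mean, beside 16487 of all 30142 genes. Without overlap, 4 lay lower there (6.28% of all genes). On single arrays, Acta1 stood at 9.23 and Ckm at 7.57 on tumour bladder 7, and Atp2a1 at 7.33 on tumour bladder 6, each the highest of the 12 arrays. Tcap, the titin cap, lay lower on tumour bladders within both kinds of array (difference -0.61, SE 0.28). Nerve, neuroendocrine and male gland genes had medians of -0.03, 0.01 and 0.08. The part of these cells in the results above was not tested.

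Genes of the sex chromosomes split the 6 other arrays. Xist, the RNA that silences an X chromosome in females, was at 11.74, 11.71, 6.85, 7.07 and 6.89 on normal bladders and from 5.43 to 7.19 (median 5.86) on tumour bladders. It stood far above all other arrays on normal bladders 1 and 2, and all flat arrays of both groups lay between 6.85 and 7.19. Eif2s3y, on the Y chromosome, was at 4.70, 4.76, 5.46, 5.29 and 5.94 and from 4.66 to 6.09 (median 5.49), with tumour bladder 6 as low as normal bladders 1 and 2. On the 6 other arrays a difference in sex cannot be told apart from tumour against normal, in each gene given here.

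**Figure D3:**
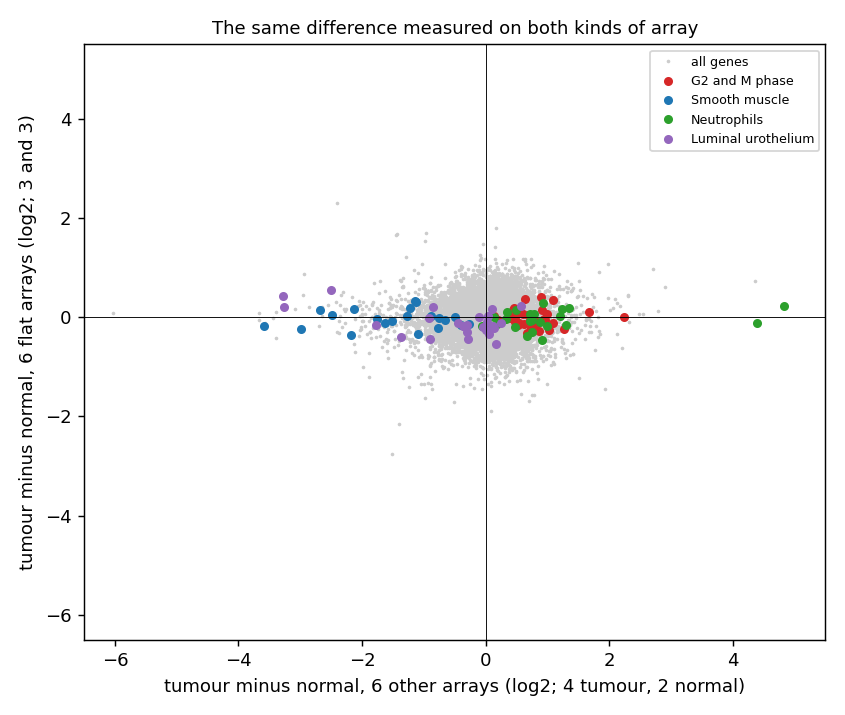
Difference between the tumour mean and the normal mean (log2) of every gene over the 6 other arrays on the horizontal axis (4 tumour, 2 normal) and over the 6 flat arrays on the vertical axis (3 and 3), with members of 4 lists in colour. The coloured points spread along the horizontal axis, to 4.83 for S100a9 and -3.59 for Acta2. On the vertical axis these genes are at 0.23 and -0.18. The list medians there run from -0.16 (luminal urothelium, with 18 of 26 members lower) to -0.0001 (G2 and M phase).

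The genes with the smallest unadjusted p had differences of the same sign on both kinds of array. They were chosen by that p, so their values are a description. Slfn10-ps, a pseudogene of the Schlafen family, was at 4.67, 4.64, 4.71, 4.97 and 4.83 on normal bladders and from 5.06 to 5.83 (median 5.44) on tumour bladders, and Mepce, the enzyme that caps the 7SK RNA, at 6.83, 6.76, 6.64, 6.79 and 6.78 and from 6.93 to 7.54 (median 7.13). Zfp174, a zinc finger protein, was at 5.46, 5.43, 5.73, 5.45 and 5.31 and from 4.75 to 5.24 (median 5.08). In these 3 genes and in Zfp804b (difference 0.52) the groups did not overlap on the 12 arrays. Slfn10-ps lay below the array's median (5.25 to 5.37) on every normal bladder. Over the 6 other and the 6 flat arrays the differences were 0.79 and 0.54 for Slfn10-ps, 0.39 and 0.47 for Mepce, and -0.31 and -0.56 for Zfp174.

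The other higher genes of that choice were Zfp90 (0.60), Ropn1l (0.32), Morn5 (0.49), Maml1, a coactivator of Notch (0.28), and the pseudogene Defa-ps14 (0.73). The lower ones were Hey2, a transcription factor downstream of Notch (-0.38), Sirt1, a protein deacetylase (-0.42), Mrps27, of the mitochondrial ribosome (-0.35), Palmd (-0.45), Pstk, a kinase of selenocysteine synthesis (-0.39), Pi16 (-0.40) and the clock output gene Dbp (-0.79). Their SEs lay between 0.08 and 0.21.

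Over the 6 other arrays, the genes with the largest differences free of overlap on the lower side came from outside the lists in most cases, again chosen by these values. Besides Xist, they were Bmp5 (-3.66), a growth factor, Hhip (-3.66), which binds and blocks Hedgehog, Avpr1a (-3.39), a vasopressin receptor, Pde5a (-2.85), which breaks down cyclic GMP in smooth muscle, Slitrk6 (-2.64), Rbm24 (-2.55), a splicing factor of muscle, Tspan8 (-2.38), Scn7a (-2.37) and Phxr4 (-2.33). Over the flat arrays the same genes without Xist had differences from -0.43 (Avpr1a) to 0.45 (Phxr4). Avpr1a was at 8.10, 8.15, 5.32, 5.83 and 4.90 on normal bladders and from 4.18 to 5.87 (median 4.59) on tumour bladders. Normal bladders 1 and 2 were above the rest by over 2 log2 units, and the flat arrays overlapped.

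Bmp5 and Hhip led to a look at the Hedgehog pathway, and Dbp to the circadian clock; both lists were chosen after values were seen. In the bladder, Shh from the urothelium signals to the stroma, where Ptch1, Gli1 and Hhip are its classic target genes. The ligand Shh was at 6.03, 5.96, 6.04, 5.97 and 5.21 on normal bladders and from 5.0 to 6.30 (median 5.54) on tumour bladders, a difference of -0.24 (SE 0.25), or -0.33 over the 6 other arrays. The groups overlapped in both kinds. Ptch1, the receptor of the ligand, was at 8.49, 8.16, 6.41, 6.51 and 6.39 and from 5.73 to 6.77 (median 6.17). Its tumour bladders lay below the normal bladders within both kinds of array, with a difference of -2.33 over the 6 other arrays (unadjusted p = 1.26e-05, adjusted p = 0.19 by limma) and of -0.20 over the flat arrays.

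Gli1, the transcription factor at the end of the pathway, differed by -0.47 over the 6 other arrays, with overlap, and by -0.08 over the flat ones. Hhip was at 9.29, 8.86, 5.82, 5.74 and 6.08 and from 4.5 to 7.83 (median 5.76), where tumour bladder 7 (7.83) lay nearest to normal bladders 1 and 2. The signal transducer Smo (0.06), Sufu (-0.01), Gli2 (-0.10) and Gli3 (0.16) differed little. Of the 16 genes measured, 11 had a lower mean over the 6 other arrays, with 5 lower and 0 higher at an unadjusted p under 0.05 by limma, beside 1.86% and 1.48% of all genes. The list was taken up because Hhip and Bmp5 had already been seen to be low on these arrays, so its counts are a description. Smooth muscle genes were lower on the same arrays; their part in these values was not tested.

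In the clock, Arntl (Bmal1) with Clock drives the output genes Dbp, Tef and Hlf and the repressors of the Per, Cry and Nr1d families. Dbp was at 7.33, 6.98, 6.33, 6.01 and 6.04 on normal bladders and from 5.38 to 6.06 (median 5.80) on tumour bladders, and Nr1d1, which represses Arntl, at 7.61, 7.09, 5.91, 6.11 and 5.97 and from 5.21 to 6.47 (median 5.90). Both genes were highest on normal bladders 1 and 2, and the flat arrays overlapped. On the 6 other arrays Dbp differed by -1.48, Nr1d1 by -1.76, Per3 by -0.77, Nr1d2 by -0.72, Hlf by -0.55 and Tef by -0.45, all free of overlap. Of the 5 members with a higher mean on those arrays, Arntl was the 1 free of overlap, with a difference of 0.58. Arntl was at 5.67, 5.99, 6.03, 6.37 and 6.18 and from 6.09 to 6.83 (median 6.38). Clock (-0.03), Cry1 (-0.13) and Per1 (0.18) overlapped. At an unadjusted p under 0.05 by limma, 7 of 16 were lower and 1 higher over the 6 other arrays, beside 1.86% and 1.48% of all genes, and 4 lower and 2 higher over the 12, beside 1.86% and 2.39%. The list was taken up because Dbp had already been seen to be low. The labels used here give no hour of collection, and its part was not tested.

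**Figure D4:**
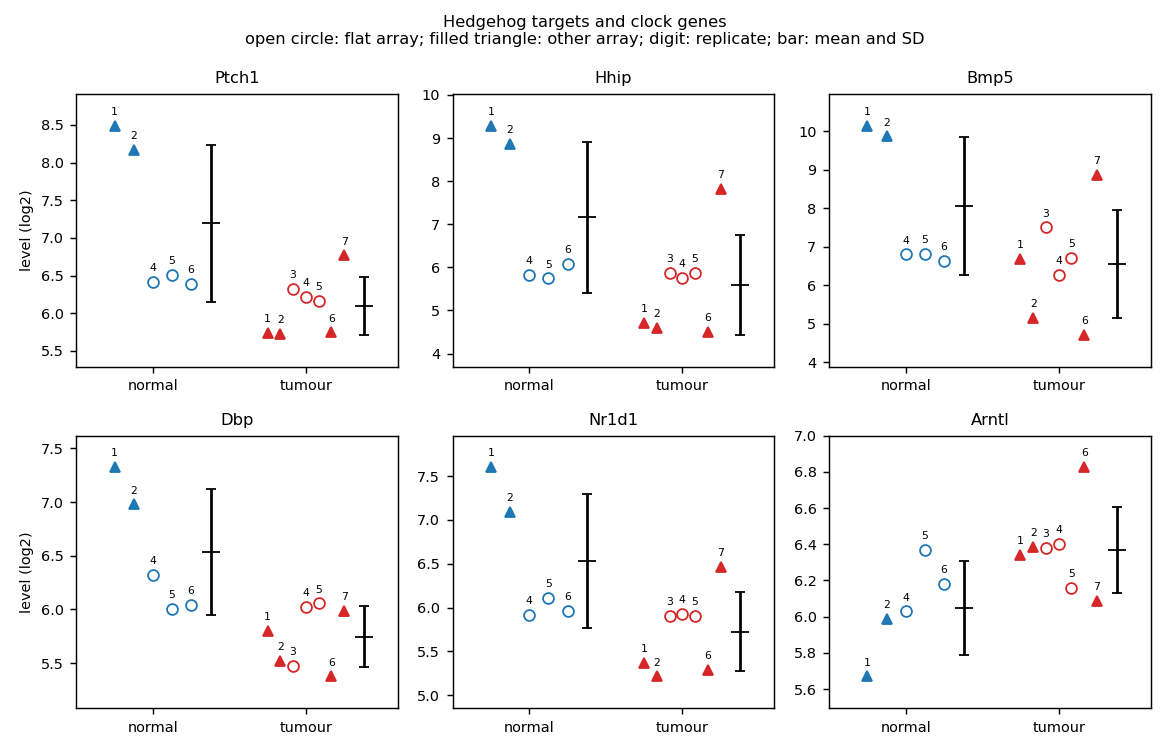
Log2 level of 3 Hedgehog genes and 3 clock genes on each array, normal bladders in blue and tumour bladders in red, with open circles for flat arrays, triangles for the other arrays, replicate numbers beside the points and bars for the mean and SD. Normal bladders 1 and 2 are the highest arrays in Ptch1 (8.49 and 8.16), Hhip, Bmp5, Dbp and Nr1d1, and the lowest in Arntl (5.67 and 5.99).

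With the flat arrays and tumour bladder 7 left out, 3 tumour bladders were set against 2 normal bladders, and 46 of 30142 genes passed the threshold, all lower (0.153%; smallest adjusted p = 4.23e-05 by limma). The estimate of the spread in that fit also drew on the metastases and treated bladders outside the flat set. Leaving out the tumour bladder whose values went with the normal ones favours a difference: its level was above those of the other 3 tumour bladders in all 46 genes, above both normal bladders in 15 and below both in 27. Over the flat arrays 26 of the 46 (56.5%) had a lower mean, as had 16487 of all 30142 genes, a similar share. Without overlap, 4 of the 46 lay lower there, beside 6.28% of all genes.

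Hhip had the smallest adjusted p in that fit (4.23e-05 by limma), and Ptch1 (0.00129), Bmp5 (0.0421), Nr1d1 (0.02) and Dbp (0.0421) passed as well. Of the lists, smooth muscle held 4 of the 46, Synpo2, Synm, Pgm5 and Kcnmb1, with differences there of -4.04, -1.82, -2.50 and -1.58. Luminal urothelium held Upk1a (-5.20), fibroblasts and matrix held Fbln1 (-1.72) and nerve held Scn7a (-2.94). Outside the lists stood the receptors Avpr1a (-3.77), Npy1r for neuropeptide Y (-2.14), Calcrl for calcitonin-like peptides (-1.94) and Lepr for leptin (-2.10), the stromal transcription factors Tcf21 (-2.24) and Meis1 (-1.56), and the matrix proteins Prelp (-2.73), Sparcl1 (-4.64), Col14a1 (-1.42) and Lama2 (-1.25). These were named after their values were seen. No gene of the cell cycle, immune or metabolic lists was among the 46. With 0.153% of all genes called, lists of this size would often hold none, so this absence is no result about them.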

How the data were processed

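RNA of 20 samples, extracted with a kit for formalin-fixed, paraffin-embedded tissue per the labels' protocols, was measured on Affymetrix arrays. The deposited values are levels that the authors made by RMA in Affymetrix Expression Console, per the submitters' processing notes, which name no versions used here. The log base is not stated in the sources used here and is taken as the usual one of RMA, log2, while the values ran from 2.16 to 22.0. The values were used as deposited. Of 65956 rows, 30604 had 1 gene symbol, 2146 several and 33206 none in the platform annotation; 827 symbols were updated through RefSeq tables, and the row with the highest mean was kept per gene, which left 30142 genes. On each array 96 to 222 rows lay above 16, the log2 limit of a 16-bit scanner, so the scale is not settled by the range. The number of arrays limits the precision.

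Tumour minus normal was fitted with limma 3.58.1 in R 4.3.3 over all 20 arrays in 5 groups, with Benjamini-Hochberg adjustment over all genes and a threshold of 0.05, and tested on simulated data. Arrays were called flat where the SD over dim rows was above 0.3 and the highest correlation with another array was below 0.25, and the fit was repeated without them. Named genes were the members at both ends of each list, preset lead members, the 8 genes with the smallest unadjusted p in each direction and the 10 largest non-overlapping differences over the 6 other arrays in each direction; genes named besides these were chosen after their values were seen. The members and lists were chosen with earlier results of these data known. Some lists share genes. Same-numbered arrays of both groups did not deviate together (r from -0.583 to 0.051 over 2624 genes), so the numbers were not used as pairs. Other engineered genes are not reported here.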

Additional observations from a re-analysis of the deposited data

Results flagged for a closer look

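In 372 sets of arrays, each the normal or the tumour bladders for 1 list mean or named gene, the highest or lowest array was tested for its distance from the rest. Of these, 47 stood apart. Chance gives about 1 in 20 for arrays drawn alike. Each set here mixes flat and other arrays, and part of the genes were named for their differences. That rate is therefore no yardstick for the 47. Most were values of tumour bladders 6 and 7, and flags on genes of 1 list are not independent of each other.

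Tumour bladder 6 was apart from the other tumour bladders, on the high side, in the list means of the Cdk4/6-Rb axis (6.34), epithelial to mesenchymal transition (7.36), neutrophils (7.02), chemokines and cytokines (6.21), matrix proteases (6.57) and glycolysis and hypoxia (7.17), and on the low side for sex chromosome genes (5.14). Its cytokine and protease genes Cxcl1 (5.92), Il1b (7.60), Il6 (6.13) and Mmp3 (10.88) were apart as well, as were the hypoxia and glucose genes Ldha (8.27), Slc2a1 (7.68) and Vegfa (8.43). In the mesenchymal list Prrx1, a factor of limb and stromal mesenchyme, was at 8.58, Tgfbi at 9.79 and Zeb1 at 8.48. Arntl (6.83), Atp2a1 (7.33), Depdc1a (7.84), Mrps27 (6.18), Suz12 (7.84) and Tnfrsf10b (6.73) were also highest there.

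Tumour bladder 7 was apart in the list means of luminal urothelium (8.42) and smooth muscle (8.67). Its uroplakins Upk1a (14.18), Upk2 (9.55) and Upk3a (12.39) and Krt19 (7.89) were above those of the other tumour bladders. The muscle genes Acta2 (12.16), Myh11 (11.63), Des (8.44), Hspb6 (5.69), Acta1 (9.23) and Ckm (7.57) were too, and so were Fabp4, of adipocytes and some endothelium (10.56), Hhip (7.83), Irs2 (10.09) and Scn7a (7.56).

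Among other tumour bladders, Cd3e was apart on number 5 (5.88) and H2-Ab1 on number 2 (7.34). Among normal bladders, the mesenchymal list mean was high on number 1 (6.51), Mmp13 on number 5 (5.76) and Pfkp on number 6 (5.91), and Fabp4 (7.86) and Rpl7 (7.04) were low on number 4 and Hey2 (5.37) on number 6.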

How the results depend on the processing

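No gene passed limma's adjusted threshold under any alternative but one: 46 passed without the flat arrays and tumour bladder 7. The count at an unadjusted p under 0.05 was 1281 and moved by over 1.5 times with array weights (3064), with dim genes left out (756), with a log2 difference of at least 1 required (27), without tumour bladder 7 (2015) and without the flat arrays and tumour bladder 7 (2169). Leaving out 1 of the 12 arrays gave 906 to 2015 such genes, the first without normal bladder 2 and the second without tumour bladder 7. Chosen after seeing the data, 1 more array was left out beside the flat set, which gave 969 without tumour bladder 1, 652 without tumour bladder 2, 1390 without tumour bladder 6, 385 without normal bladder 1 and 481 without normal bladder 2, against 1007 with the flat set alone left out. With the replicate number as a block, 0 genes passed the adjusted threshold and 1537 the unadjusted one; the numbers did not pair the samples. Of 30 lists, 27 kept the sign of their median without the flat arrays and 13 on the flat arrays alone, and of 156 named genes 141 and 110 kept theirs. Centring each array on its median kept the sign in 29 lists and 155 genes. The cause of these moves was not tested.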

Other observations

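Immunoglobulin kappa variable segments were read after their values were seen. Of 86 segments measured, 64 had a higher mean on tumour bladders, 68 over the 6 other arrays and 54 over the flat ones. The shares of all genes were 53.1%, 61.4% and 45.3%. Median differences were 0.28, 0.28 and 0.14. The highest array was tumour bladder 7 in 26 segments, tumour bladders 2 and 4 and normal bladder 4 in 11 each, and tumour bladder 6 in 0. Single segments stood out on single arrays: Igkv4-91 was at 14.87 on tumour bladder 1 and from 3.52 to 8.18 on the 11 others, and Igkv4-59 was at 10.99 on tumour bladder 7 and from 4.81 to 7.91 elsewhere. The heavy chain gene Ighm was highest on tumour bladder 1 (8.76) and Ighg2b on tumour bladder 7 (9.04). Segments of this family are near copies of each other, so the level of any 1 of them is uncertain.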
